A study of Mus musculus with 5 samples.

Results

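The chromodomain helicase DNA-binding (CHD) proteins are a family of chromatin remodellers encoded in the mouse by the genes Chd1 to Chd9. The members described here are the rows of the deposited expression matrix whose gene symbol is 1 of these 9 names, and all 9 were found among 22683 genes. Each member had at least 10 normalized counts in at least 2 libraries, the minimum for testing, so none was left out. Chd5 met it only through the mdx libraries. RNA was sequenced from sorted quiescent satellite cells, the resting stem cells of skeletal muscle. The 2 genotypes were wild type (2 libraries) and mdx (3 libraries), a line with a mutation in the dystrophin gene Dmd that models Duchenne muscular dystrophy. The labels' protocols put 10000 to 20000 sorted cells into a library. The title of the study names epigenetic control of necroptosis, a regulated form of cell death, in the stem cells of dystrophic muscle. No treatment, time point or other allele is given for either genotype, and the sources used here give no strain, age, sex, muscle or sorting gate.

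CHD proteins use ATP to slide, space, evict or exchange nucleosomes. All carry paired chromodomains and a helicase-like motor of the SNF2 type. Chd1 and Chd2 form the first subfamily and act mainly at transcribed genes. Chd3, Chd4 and Chd5 form the second, carry PHD fingers, and are the alternative motors of the NuRD complex, which joins remodelling to histone deacetylation. Chd6, Chd7, Chd8 and Chd9 form the third subfamily, which is marked by BRK domains and includes regulators of development. In satellite cells, Chd4 is known as a repressor of genes of other lineages and Chd2 as a partner of the myogenic factor MyoD.

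Chd4 and Chd8 are shown by their promoters, since both differed between the genotypes and both have an entry in the RefSeq promoter table. That table covers 5 of the 9 members (Chd4, Chd5, Chd6, Chd8 and Chd9). Each window runs from 250 bases before to 50 bases after an annotated start on the build GRCm38.p6, 5′ to 3′ on the gene's strand. Capitals mark GC boxes (GGGCGG or CCGCCC) and CCAAT boxes (CCAAT or ATTGG), with both strands searched and no overlap between the motifs. The Chd4 window is at chr6:125095731-125096030 on the plus strand and the Chd8 window at chr14:52257711-52258010 on the minus strand.
Chd4: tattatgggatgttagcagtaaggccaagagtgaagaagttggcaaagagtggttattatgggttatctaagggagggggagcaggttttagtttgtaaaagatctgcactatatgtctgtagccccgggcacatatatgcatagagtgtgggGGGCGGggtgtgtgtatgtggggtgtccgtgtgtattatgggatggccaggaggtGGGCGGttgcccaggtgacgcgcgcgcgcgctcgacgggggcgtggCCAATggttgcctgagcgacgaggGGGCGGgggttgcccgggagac
Chd8: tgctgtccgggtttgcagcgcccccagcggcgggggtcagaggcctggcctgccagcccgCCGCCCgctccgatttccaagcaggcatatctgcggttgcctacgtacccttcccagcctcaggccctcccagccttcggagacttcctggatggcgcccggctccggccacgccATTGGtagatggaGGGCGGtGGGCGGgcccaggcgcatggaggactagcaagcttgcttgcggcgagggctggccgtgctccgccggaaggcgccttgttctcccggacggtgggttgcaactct
Each window holds 3 GC boxes and 1 CCAAT box. The Chd8 window has 26 CpG dinucleotides. The Chd4 window shown has 17, and the window of a second annotated Chd4 start, chr6:125095913-125096212, has 29, with as many GC and CCAAT boxes as the first. Of 32851 mouse promoter windows of this length, 35.7% hold a GC box and 37.4% a CCAAT box.

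The libraries differed in more than genotype. Totals ran from 12473348 to 16825045 normalized counts, and the gene with the highest value took 3.40% to 3.52% of the total in wild type and 6.44% to 22.3% in mdx. Xist, transcribed from the inactive X chromosome, was at 30235 and 30176 in the wild-type libraries against 0, 0 and 12 in mdx. The summed values of 4 Y-linked genes were 10 and 0 in wild type and 3444, 2926 and 2298 in mdx, so genotype and sex cannot be told apart. Of 14 satellite cell markers, 7 were lower and 3 higher in mdx, and their sum fell in the range 121852 to 134415 in wild type and 60499 to 87818 in mdx. Pax7, the defining satellite cell factor, was present in every library, at 9103 and 7644 in the wild-type libraries against 12767, 9751 and 14989 in mdx. Markers of other cells were called higher in mdx in 13 of 14 endothelial, 11 of 14 macrophage, 10 of 12 fibro-adipogenic, 4 of 9 pericyte and 5 of 11 myofiber genes, beside 14.6% of all tested genes. The endothelial, fibro-adipogenic and pericyte lists each had 1 gene called lower, beside 10.3% of all, and markers at 0 in wild type could be tested only because of their mdx values. Their sums in wild type against mdx were 3098 to 3613 against 24735 to 33131 for endothelial and 456 to 693 against 10864 to 16074 for macrophage markers. They were 32162 to 44673 against 97534 to 171631 for fibro-adipogenic markers. They were 3348 to 3825 against 9138 to 10628 for pericyte and 4012 to 4653 against 31742 to 76045 for myofiber markers. Both wild-type libraries were at 0 for Emcn, Cldn5, Ptprb and Erg (endothelial), Itgam, Mrc1, C1qa, C1qb and C1qc (macrophage) and Mfap5 (fibro-adipogenic), whereas none of these markers was at 0 in all mdx libraries. The part of these markers in the results below was not tested. In RNA from whole sorted populations, a different number of cells of a type and a different amount of RNA per cell cannot be told apart. The labels do not say whether libraries of a genotype came from separate animals, so p-values measure only how far these libraries spread, and that spread may be technical.

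Dmd, which carries the mdx mutation, was at 11826 and 9266 normalized counts in wild-type cells against 4642, 4116 and 3700 in mdx. This was a log2 change of -1.34 (limma, adjusted p = 0.00099). All mdx libraries had less Dmd RNA than both wild-type libraries, so this gene did not go against the labels. Among all tested genes, 23.8% had all mdx libraries below. The Dmd call was lost with variances moderated without the mean trend (limma, adjusted p = 0.0569).

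Chd3, Chd4, Chd7 and Chd8 were higher in mdx in the values as deposited, and no CHD gene was called lower. These are motors of the NuRD subfamily and of the developmental subfamily. Changes were tested with limma on log2(normalized count + 2), with p-values adjusted over all 18199 tested genes by the Benjamini-Hochberg method and a threshold of 0.05. The 4 of 9 members called higher make up 44.4% of the family, beside 14.6% of all tested genes, while 0 of 9 were called lower beside 10.3% of all (limma; 0 also at an unadjusted p under 0.05). In either direction 24.9% of all tested genes were called. The median log2 fold change of the 9 members was 0.65, beside 0.135 over all tested genes. In 5 members (Chd3, Chd4, Chd5, Chd7 and Chd8) every mdx library lay above both wild-type libraries, and in none did every mdx library lie below. Among all tested genes, 28.2% had all mdx libraries above and 23.8% all below. Setting all libraries to an equal total moved the median over all genes from 0.135 to 0.31 and quantile normalization moved it to 0.000148. The same 4 members were called higher under both scalings. Relative to the median of all genes, Chd4 was 0.80 higher as deposited, 0.81 with equal totals and 1.47 after quantile normalization.

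**Figure D1:**
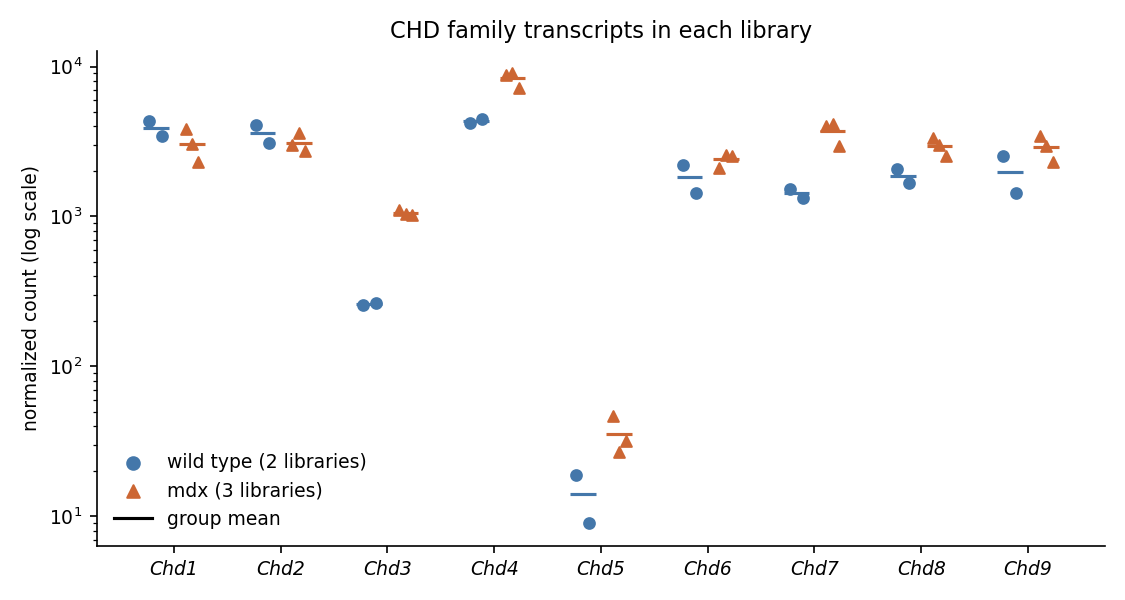
Normalized counts of the 9 CHD genes in each library (vertical axis, log scale), with 1 point per library and a bar at the mean of each genotype. For Chd3, Chd4, Chd5, Chd7 and Chd8 the 3 mdx points lie above both wild-type points, while the points of Chd1, Chd2, Chd6 and Chd9 overlap.

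Long transcripts as a class were higher in mdx, and every CHD gene is long. The longest annotated transcripts of the members ran from 6697 bases (Chd4) to 12008 bases (Chd9). Among tested genes with a longest transcript of at least 6000 bases, the median log2 fold change was 0.63, with 34.5% called higher and 6.48% lower. Among those under 1000 bases it was -0.97, with 2.21% called higher and 20.1% lower. When the trend of each library with transcript length and GC content was removed, keeping each library's median, Chd3 and Chd7 were called higher and Chd2 was called lower. These are 2 of 9 members beside 11.9% of all tested genes called higher, and 1 of 9 beside 7.84% called lower. The median log2 fold change of the members was then 0.12, beside 0.196 over all genes. Chd4 was at 0.38 after this correction (limma, adjusted p = 0.117) and Chd8 at 0.12 (adjusted p = 0.674). With the length trend alone removed, Chd4 was at 0.50 and remained called (adjusted p = 0.0419), Chd3 and Chd7 were also called higher, and Chd1 and Chd2 were called lower. When the corrected libraries were instead centred on their mean, the median over all genes moved to -0.34 and 1466 genes were called higher and 3197 lower, against 2659 and 1868 without correction. No member was then called higher, and Chd1, Chd2 and Chd6 were called lower. Relative to the median of all genes, the length and GC correction placed Chd3 at 0.94, Chd7 at 0.53, Chd4 at 0.18 and Chd8 at -0.08. The 2 centrings give these same values by construction, since they differ only by a constant per library. With the length trend alone removed, Chd3 was at 1.35, Chd7 at 0.60, Chd4 at 0.31 and Chd8 at -0.06 relative to that median.

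**Figure D2:**
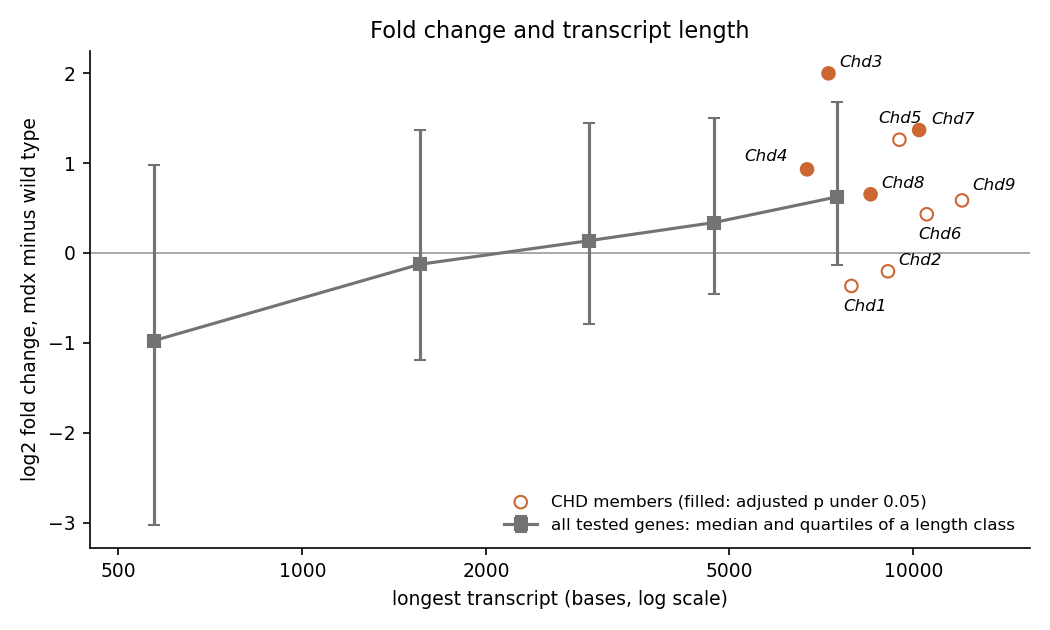
Log2 fold change, mdx minus wild type (vertical axis), against the longest annotated transcript in bases (horizontal axis, log scale). Squares and bars give the median and quartiles of all tested genes in 5 length classes, rising from -0.97 to 0.63, and circles give the CHD genes, filled where the adjusted p was under 0.05.

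Within the NuRD motor subfamily, Chd3 had the largest fold change of all 9 members and Chd4 the highest level per length. Chd3 was at 256 and 265 normalized counts in wild-type cells against 1097, 1031 and 1016 in mdx. Both wild-type libraries were close to each other, and the lowest mdx library was far above them. The means were 260.5 ± 6.36 (SD, n = 2) and 1048 ± 43.1 (SD, n = 3). The fold change was 4.0 (95% interval 2.66 to 6.01; log2 2.00, SE 0.26; limma, adjusted p = 0.000824). The call held with any 1 library left out and after the correction for length and GC content, where the log2 change was 1.13 (limma, adjusted p = 0.0162). Chd3 lies at chr11:69343273-69369406 on the minus strand (mm10), with 40 exons in its longest transcript.

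Chd4, the principal NuRD motor in most tissues, was at 4211 and 4491 in the wild-type libraries against 8791, 9026 and 7187 in mdx. The genotypes did not overlap, and the lowest mdx library was the third. The means were 4351 ± 198 (SD, n = 2) and 8335 ± 1001 (SD, n = 3), a fold change of 1.91 (95% interval 1.47 to 2.48; log2 0.93, SE 0.17; limma, adjusted p = 0.00424). The call held with any 1 library left out. It was lost after removing length and GC content together and with variances moderated without the mean trend (adjusted p = 0.116). Chd4 lies at chr6:125095981-125130591 on the plus strand, and its longest transcript has 39 exons.

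Chd5, known mainly from neurons and testis, was near the lower limit of measurement. It was at 19 and 9 in the wild-type libraries against 47, 27 and 32 in mdx. All mdx libraries were above both wild-type libraries, but the log2 change of 1.26 had an SE of 1.06 and was not called (limma, adjusted p = 0.407). Its 95% interval, from -1.13 to 3.65, holds both no change and a change as large as that of Chd3. Chd5 lies at chr4:152338651-152390194 on the plus strand.

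In the subfamily of Chd6 to Chd9, Chd7 and Chd8 were called higher. Chd7, whose human counterpart is mutated in CHARGE syndrome, was at 1516 and 1334 in the wild-type libraries against 4045, 4162 and 2948 in mdx. The third mdx library was again the lowest of its genotype and still above both wild-type libraries. The means were 1425 ± 129 (SD, n = 2) and 3718 ± 670 (SD, n = 3), a fold change of 2.58 (95% interval 1.85 to 3.6; log2 1.37, SE 0.21; limma, adjusted p = 0.00205). The call held with any 1 library left out and after correction for length and GC content, at a log2 change of 0.73 (limma, adjusted p = 0.0262). It was lost with variances moderated without the mean trend (adjusted p = 0.0604). Chd7 lies at chr4:8690921-8867659 on the plus strand.

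Chd8, which binds beta-catenin and whose human counterpart is a well-known autism gene, was at 2073 and 1678 in the wild-type libraries against 3313, 2992 and 2549 in mdx. The genotypes did not overlap, with a gap from 2073 to 2549. The fold change was 1.57 (95% interval 1.15 to 2.16; log2 0.65, SE 0.20; limma, adjusted p = 0.0435), the smallest of the 4 calls. The call was lost without wild-type library 2 (adjusted p = 0.168) and without mdx library 1 (0.133), 2 (0.118) or 3 (0.0664). It held without wild-type library 1 (limma, adjusted p = 0.0125). Chd8 lies at chr14:52198151-52257723 on the minus strand.

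Chd6 and Chd9 were not called. Chd6, linked to the oxidative stress response, was at 2208 and 1438 in the wild-type libraries against 2117, 2576 and 2544 in mdx, a log2 change of 0.43 (95% interval -0.09 to 0.96; limma, adjusted p = 0.207). Chd9, a coactivator of nuclear receptors, was at 2519 and 1435 in the wild-type libraries against 3427, 2936 and 2310 in mdx, a log2 change of 0.59 (95% interval -0.04 to 1.21; limma, adjusted p = 0.152). In both genes the first wild-type library lay within the range of mdx and the second below it. Without that first library, Chd6 was called higher at 0.74 (limma, adjusted p = 0.0298) and Chd9 at 0.99 (limma, adjusted p = 0.00167). Chd6 lies at chr2:160946978-161109022 on the minus strand and Chd9 at chr8:90828352-91054516 on the plus strand.

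The transcription-linked members Chd1 and Chd2 had the only negative fold changes of the family in the values as deposited, and neither was called. Chd1, which spaces nucleosomes behind RNA polymerase, was at 4313 and 3452 in the wild-type libraries against 3859, 3030 and 2292 in mdx. Its first mdx library lay between the wild-type libraries and the log2 change was -0.37 (95% interval -0.91 to 0.18; limma, adjusted p = 0.291). Chd2 was at 4072 and 3097 in the wild-type libraries against 2984, 3610 and 2720 in mdx, a log2 change of -0.20 (95% interval -0.67 to 0.26; limma, adjusted p = 0.496). Its second mdx library lay between the wild-type libraries. Quantile normalization turned the sign of Chd2, at 0.02. After correction for length and GC content Chd2 was at -0.74 and called lower (limma, adjusted p = 0.0177), and Chd1 was at -0.57 (limma, adjusted p = 0.0839). Chd2 lies at chr7:73426638-73541746 on the minus strand.

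The deposited row for Chd1 runs over chr17:15704967-17394898 on the plus strand, 1689932 bases. The gene in GENCODE release M21 ends at 15772610 and spans 67644 bases. Whether reads beyond the annotated gene were counted for Chd1 is not given in the sources used here. Values per base below use the annotated transcript.

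**Figure D3:**
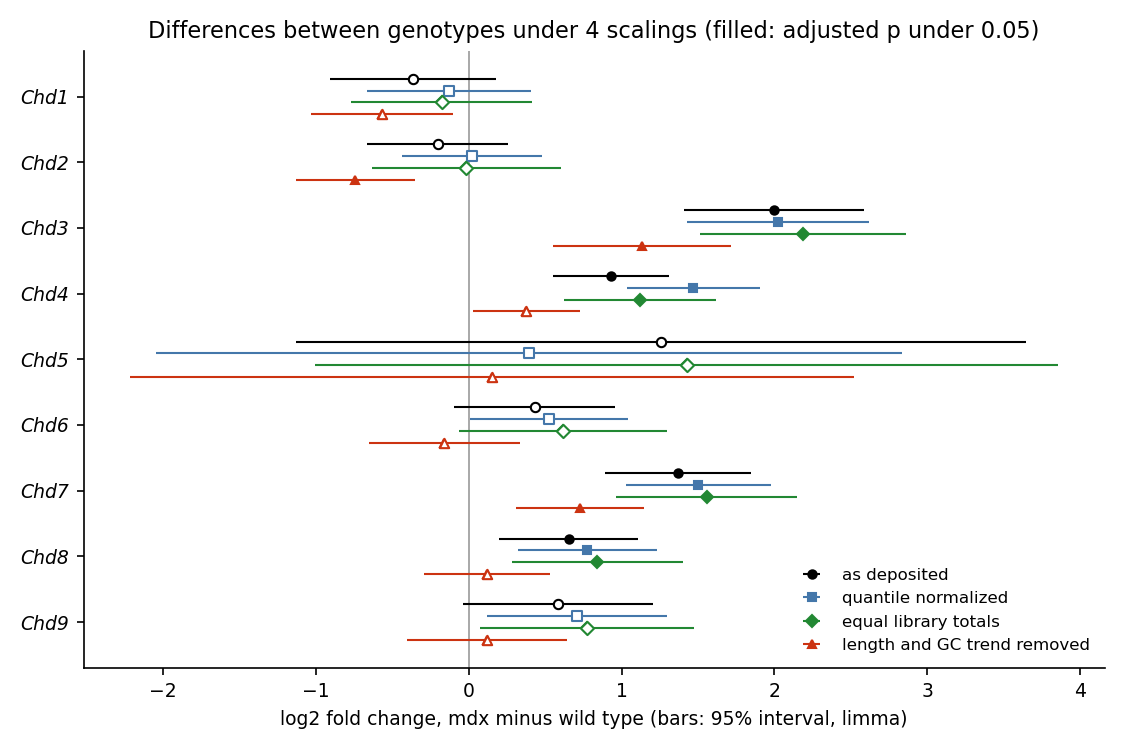
Log2 fold change, mdx minus wild type (horizontal axis), of each CHD gene with its 95% interval under 4 scalings: as deposited, quantile normalized, set to equal library totals, and with the length and GC trend removed. Filled symbols have an adjusted p under 0.05: Chd3, Chd4, Chd7 and Chd8 under the first 3, and Chd3, Chd7 and, below 0, Chd2 under the last.

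Per kilobase of longest transcript, Chd4 had the highest level of the family in both genotypes, at 650 ± 29.6 (SD, n = 2) normalized counts in wild type and 1245 ± 149 (SD, n = 3) in mdx. In wild type the order went on with Chd1 (490 ± 76.9), Chd2 (395 ± 75.9), Chd8 (220 ± 32.8), Chd6 (173 ± 51.8), Chd9 (165 ± 63.8), Chd7 (139 ± 12.6), Chd3 (35.9 ± 0.88) and Chd5 (1.48 ± 0.75). The ranges of neighbours did not overlap at 4 steps, Chd4 over Chd1, Chd2 over Chd8, Chd7 over Chd3 and Chd3 over Chd5, and overlapped at the others. In mdx the order after Chd4 was Chd1 (387 ± 99.0), Chd7 (364 ± 65.6), Chd8 (347 ± 45.1), Chd2 (342 ± 50.3), Chd9 (241 ± 46.6), Chd6 (229 ± 24.4), Chd3 (144 ± 5.93) and Chd5 (3.72 ± 1.10). Here the steps without overlap were Chd4 over Chd1, Chd2 over Chd9, Chd6 over Chd3 and Chd3 over Chd5. The order of Chd1, Chd7, Chd8 and Chd2 in mdx thus lay within the spread of the libraries. With the union of all exons as length, Chd4 and Chd1 stayed first and second and Chd3 and Chd5 last in both genotypes, and the order between them changed. In mdx the ranges of Chd9 and Chd3 then overlapped, at means of 125 and 124.

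The make-up of the family, as shares of the summed CHD levels per kilobase in a library, differed most in percentage points for Chd1, Chd4 and Chd2. Chd4 made up 25.4% and 32.4% in wild type and 36.9%, 38.3% and 38.0% in mdx. Chd1 made up 22.1% and 21.1% in the wild-type libraries against 13.7%, 10.9% and 10.2% in mdx, and Chd2 18.1% and 16.5% against 9.23%, 11.3% and 10.6%. The share of Chd7 was 6.01% and 6.31% in wild type and 11.1%, 11.6% and 10.2% in mdx, and that of Chd3 was 1.43% and 1.76% against 4.25%, 4.03% and 4.95%. The share of Chd8 was 9.86% and 9.53% in wild type and 10.9%, 9.99% and 10.6% in mdx, with a narrow gap between the genotypes. None of these 6 shares overlapped, while those of Chd5, Chd6 and Chd9 did. For normalized counts, 28.2% of all tested genes had all mdx libraries above and 23.8% all below. The shares in a library add up to the whole, so a larger share of 1 member leaves less for the others. The normalized counts of Chd1 and Chd2 themselves overlapped between the genotypes and were not called. Summed over the family, the level scaled to equal library totals (CPM) was 1392 and 1022 in wild type and 1863, 2356 and 1694 in mdx.

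**Figure D4:**
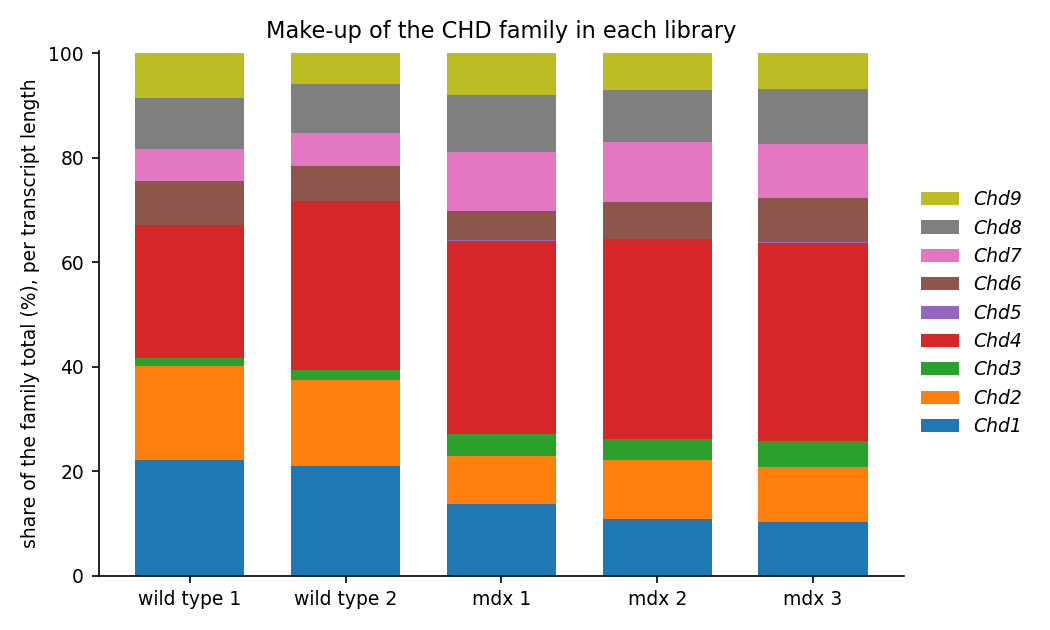
Share of each CHD gene in the summed family level per kilobase of longest transcript (vertical axis, percent), with 1 stacked bar per library. Chd4, Chd7 and Chd3 take larger shares in the 3 mdx bars and Chd1 and Chd2 smaller ones.

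Ratios between members of a subfamily do not depend on a constant factor per library, and 6 such ratios per length were compared. Chd3 reached 5.61% and 5.44% of the Chd4 level in wild type and 11.5%, 10.5% and 13.0% in mdx, a log2 difference of 1.07. That difference was 0.76 after correction for length and GC content and 0.56 after quantile normalization, which changes ratios within a library. Chd7 reached 60.9% and 66.2% of the Chd8 level in wild type and 102%, 116% and 96.3% in mdx, a log2 difference of 0.72. Neither ratio overlapped between genotypes. With 2 libraries against 3, the two-sided exact permutation test cannot go below p = 0.2, which both reached (0.6 adjusted over the 6 ratios). The ratios of Chd2 to Chd1, Chd5 to Chd4, Chd6 to Chd8 and Chd9 to Chd8 overlapped. The difference in the Chd5 to Chd4 ratio was 0.33 as deposited and -1.07 after quantile normalization. Chd2 was at 82.3% and 78.2% of Chd1 in the wild-type libraries against 67.4%, 104% and 103% in mdx.

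Of 59 tested genes in 5 lists of partners and related motors, 10 (16.9%) were called higher and 4 (6.78%) lower, beside 14.6% and 10.3% of all genes. After correction for length and GC content, 7 were called higher and 7 lower, beside 11.9% and 7.84% of all genes. The 7 called higher are a share equal to that of all genes. Among 12 NuRD subunits that are not motors, 3 rose, 2 fell and 7 were not called, with a median log2 change of 0.36. After the length and GC correction 2 rose and 2 fell. Rbbp7, a histone-binding subunit, fell from 4866 and 4714 in wild type to 1664, 1877 and 1692 in mdx (log2 -1.46; limma, adjusted p = 0.000538). The MTA scaffold subunits moved in opposite directions. Mta1 rose from 805 and 824 to 1894, 2114 and 1996 (log2 1.29; limma, adjusted p = 0.00191), and Mta2 fell from 1494 and 1858 to 948, 923 and 1029 (log2 -0.79; adjusted p = 0.0286). Gatad2b, which bridges the deacetylase part to the motor, rose from 1700 and 1339 to 2128, 2689 and 2417 (log2 0.67; limma, adjusted p = 0.0441). The fifth called subunit, Mbd3, was named after its values were seen and was at 459 and 465 in the wild-type libraries against 700, 878 and 1008 in mdx (log2 0.88; limma, adjusted p = 0.0441). Its call was lost with any 1 library left out (adjusted p from 0.0539 to 0.125). The calls of Mta2 and Gatad2b were lost without any 1 mdx library (limma, adjusted p from 0.0667 to 0.0796 and from 0.0729 to 0.129). Both calls were also lost with equal library totals (0.127 and 0.0559). Without wild-type library 2 the log2 changes were smaller in size, at -0.63 for Mta2 and 0.50 for Gatad2b. That fit has 1 wild-type library, so whether these calls held is not given. The correction for length and GC content ended the calls of Gatad2b (0.29; limma, adjusted p = 0.305) and Mbd3 (0.12; adjusted p = 0.801).

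Chd4 also works with the zinc-finger protein Adnp and heterochromatin proteins in the ChAHP complex. Of 5 such partners, 4 were not called. Adnp was listed at 0 in each wild-type library, and its mdx values were 61, 133 and 123. It met the minimum for testing only through the mdx libraries, so its call, 1 of the 10 above, is given as a description. None of 6 Chd8 partners was called by limma, beside 24.9% of all tested genes called in either direction. At an unadjusted limma p under 0.05, reached in either direction by 6933 of all 18199 tested genes, 2 were lower. These were Dpy30, a subunit of histone methyltransferase complexes, at 179 and 212 against 76, 37 and 28 (limma, adjusted p = 0.0622), and Ctnnb1, which encodes beta-catenin, at 7987 and 9011 against 6366, 6141 and 6186 (limma, adjusted p = 0.0583). In both genes all mdx libraries were below both wild-type libraries, as in 23.8% of all tested genes. After correction for length and GC content, 1 of the 6 partners was called lower and 0 higher, beside 7.84% and 11.9% of all tested genes. This was Ctnnb1 (log2 -0.45; limma, adjusted p = 0.0472), which after quantile normalization was at 0.12.

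Of 13 genes listed as partners of Chd1 and Chd2 in transcription elongation and histone exchange, 1 rose, 2 fell and 10 were not called. Over all tested genes, 14.6% were called higher and 10.3% lower. The median log2 change of the 13 genes was -0.41, beside 0.135 over all genes. The gene that rose is not an elongation factor, and its link to Chd1 or Chd2 was not tested. Ncoa6, a coactivator of nuclear receptors, rose from 490 and 471 to 1783, 1584 and 1511 (log2 1.75; limma, adjusted p = 0.000698). The genes that fell both encode the replacement variant of histone H3 that is deposited at transcribed genes. H3f3a fell from 1569 and 1093 to 395, 487 and 439 (log2 -1.57; limma, adjusted p = 0.00397), and H3f3b fell from 3700 and 4240 to 2513, 2860 and 2610 (log2 -0.58; adjusted p = 0.0407). The call for H3f3b was lost without mdx library 1 (limma, adjusted p = 0.109), 2 (0.0709) or 3 (0.0968). It was also lost with equal library totals (0.272) and after quantile normalization (0.200). Without wild-type library 2 the log2 change of H3f3b was smaller in size, at -0.48. That fit has 1 wild-type library, so whether the call held is not given. After correction for length and GC content the log2 change of H3f3b was 0.018. After that correction 1 of the 13 genes rose and 2 fell, beside 11.9% and 7.84% of all tested genes. Their median was then -0.17, beside 0.196 over all genes.

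Among 23 other remodelling motors of the SNF2 type, 5 rose, none fell and 18 were not called (limma; 2 were lower at an unadjusted p under 0.05), with a median log2 change of 0.51 that was 0.22, with 3 rising and 2 falling, after correction for length and GC content. Smarca4 and Smarca2 encode the alternative motors of the BAF complex. Smarca4 rose from 1220 and 1456 to 3424, 3797 and 3378 (log2 1.40; limma, adjusted p = 0.000891), and Smarca2 rose from 1841 and 1268 to 3586, 3370 and 3191 (log2 1.14; adjusted p = 0.00484). Ep400, a motor that exchanges histone variants, rose from 2956 and 2518 to 5257, 5126 and 5221 (log2 0.93; limma, adjusted p = 0.00407). Rad54l2 rose from 396 and 666 to 1189, 1086 and 1547 (log2 1.29; limma, adjusted p = 0.0137). The fifth, Zranb3, a motor of replication fork repair, was named after its values were seen and was at 61 and 72 in the wild-type libraries against 282, 375 and 206 in mdx (limma, adjusted p = 0.0196). The call of Rad54l2 was lost without any 1 mdx library (adjusted p from 0.0537 to 0.0794) and that of Zranb3 without mdx library 1 (0.0683) or 2 (0.0781). The correction for length and GC content ended the calls of Ep400 (0.22; limma, adjusted p = 0.344) and Rad54l2 (0.69; adjusted p = 0.154). With the corrected libraries centred on their mean, Ep400 was at -0.32. The 5 called motors are 21.7% of the list, beside 14.6% of all genes, and the 3 called higher after correction stand beside 11.9% of all. Of the 23 motors, 0 were called lower, beside 10.3% of all genes. The 2 called lower after correction stand beside 7.84% of all.

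The necroptosis genes of the study's title were read beside Chd4. Ripk3, the kinase that commits a cell to necroptosis, was at 1 and 18 in the wild-type libraries against 98, 233 and 104 in mdx (log2 4.13, SE 1.09; limma, adjusted p = 0.0240). Ripk1, its upstream kinase, was at 3427 and 3367 against 2353, 1784 and 1532 (log2 -0.87; limma, adjusted p = 0.0203). Mlkl, which permeabilises the membrane, was at 0 and 0 against 12, 31 and 129 (limma, adjusted p = 0.0516). Ripk3 and Mlkl met the minimum for testing only through the mdx libraries, so their values are a description. The Ripk3 call was lost without any 1 of the mdx libraries (adjusted p from 0.0819 to 0.111), that of Ripk1 without mdx library 2 (0.0835) or 3 (0.0767), and Mlkl was called without mdx library 1 (0.0464). With equal library totals the Ripk1 call was lost as well (limma, adjusted p = 0.0708). Summed markers of macrophage, endothelial, fibro-adipogenic, pericyte and myofiber cells were also higher in the mdx libraries. Their part in these necroptosis values was not tested.

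Several CHD genes carry other transcripts within their span, and 3 small RNAs among them were lower in mdx while the host, as deposited, was higher. Small nucleolar and small Cajal body RNAs guide chemical modification of ribosomal and spliceosomal RNA and are usually processed from introns. In GENCODE release M21 (GRCm38), 4 such RNAs lie in introns of every transcript of Chd3, Chd4, Chd6 or Chd8. The 3 on the host's strand are printed 5′ to 3′ because their values moved against the host's.
Gm22442: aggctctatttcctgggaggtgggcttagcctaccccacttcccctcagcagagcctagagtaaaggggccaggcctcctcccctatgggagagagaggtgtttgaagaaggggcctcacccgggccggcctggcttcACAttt
Gm23751: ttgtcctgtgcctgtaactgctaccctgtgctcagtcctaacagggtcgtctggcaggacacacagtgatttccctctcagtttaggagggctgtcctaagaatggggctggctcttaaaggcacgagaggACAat
Snord8: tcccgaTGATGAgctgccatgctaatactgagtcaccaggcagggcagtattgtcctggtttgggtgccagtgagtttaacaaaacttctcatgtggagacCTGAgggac
Capitals mark the ACA triplet near the 3′ end in Gm22442 and Gm23751, and TGATGA (the C box) near the 5′ end with CTGA (the D box) near the 3′ end in Snord8, each searched on the RNA's strand. Of 1558 annotated RNAs of these types, 47.6% hold ACA in the last 8 bases, and 20.2% hold TGATGA in the first 20 with CTGA in the last 20.

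Gm22442, at chr11:69350518-69350661 in Chd3, was at 2107 and 1811 normalized counts in wild-type cells against 31, 5 and 55 in mdx (log2 -6.37; limma, adjusted p = 0.000929). Gm23751, at chr6:125121724-125121859 in Chd4, was at 1410 and 2184 against 138, 89 and 61 (log2 -4.24; limma, adjusted p = 0.000289). Snord8, at chr14:52209785-52209894 in Chd8, was at 8683 and 13783 against 30, 4 and 0 (log2 -10.56; limma, adjusted p = 0.00017). In each, all mdx libraries were far below both wild-type libraries, while the host as deposited was called higher. Gm25561, on the strand opposite to Chd6, was at 20 and 80 against 14, 0 and 0 and was not called (limma, adjusted p = 0.129). Snord8 and Gm25561 met the minimum for testing only through the wild-type libraries. Their test results, with and without the length and GC correction, are therefore a description, and the Snord8 call is counted below as such. Other small RNAs low in mdx may have met the minimum in the same way. The share of all tested small RNAs called lower carries that limit. The 3 calls among these 4 RNAs stand beside 77.8% of all 266 tested small nucleolar and Cajal body RNAs called lower, at a median log2 change of -6.75, and 0 called higher (limma; 2 at an unadjusted p under 0.05). Such RNAs are short, and with the length and GC trend removed Gm23751 was at -0.26 (limma, adjusted p = 0.704). Gm22442 was then at -3.28 (limma, adjusted p = 0.0215) and Snord8 at -5.96 (adjusted p = 0.00478), both still called lower, and 103 of the 266 were called lower.

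**Figure D5:**
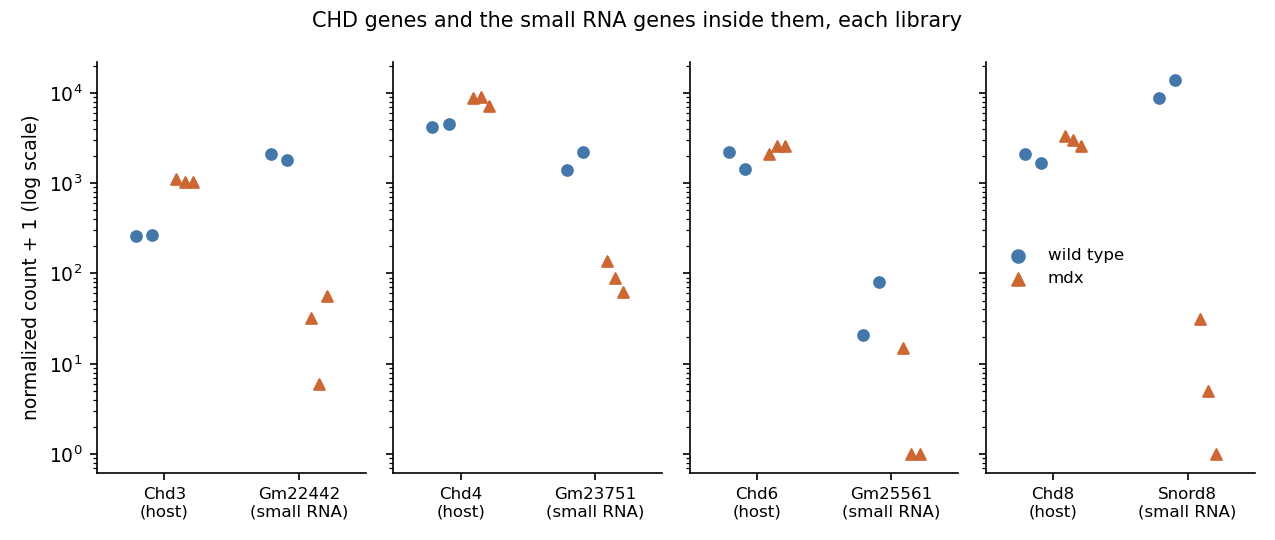
Normalized count plus 1 (vertical axis, log scale) of Chd3, Chd4, Chd6 and Chd8 and of the small RNA within each, with 1 point per library. For Chd3, Chd4 and Chd8 the host points are higher in mdx and the small RNA points lower; for Chd6 the host points overlap and those of Gm25561 are lower in mdx.

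Longer transcripts overlapped Chd2 and Chd9 as well. 1810026B05Rik, also called Chaserr, is a noncoding RNA just upstream of Chd2 on the same strand and is known to restrain Chd2. It was at 490 and 596 in the wild-type libraries against 262, 215 and 323 in mdx, all mdx libraries below both controls, and was not called (log2 -1.03; limma, adjusted p = 0.0630). In Chd9, Gm45640 was at 52 and 60 against 238, 201 and 80 and Gm6658 at 47 and 69 against 0, 26 and 19, and neither was called (limma, adjusted p = 0.153 and 0.230). The strand setting of the read counting is not given in the sources used here, so reads of a CHD gene and of a transcript within its span may be shared or set aside.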

How the data were processed

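Sorted cells went into a stranded low-input total RNA kit, per the labels' protocols. STAR 2.6.1d, featureCounts 1.6.3, DESeq2 1.18.1 and the build mm10 appear in the submitters' processing notes, while settings and strand are not stated there. The deposited table gives 1 whole-number score per gene and library. From the values, these are taken as counts scaled per library and rounded by the authors, though no header or label says so. No count model was used, and the depth in reads is not known.

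Log2(value + 2) was fitted on genotype for genes with at least 10 in at least 2 libraries, using limma 3.58.1 (R 4.3.3) with a mean trend and robust moderation. Two-sided p-values were adjusted over all tested genes. Fold changes are on this scale, which understates changes of low genes. Length and GC content came from the longest transcript in GENCODE M21 (22649 of 22683 identifiers found), and the trend was removed per library by splines with 5 degrees of freedom. Ratios used a two-sided exact permutation test. The steps were tested on simulated data. The values of 1 further marker list are not reported here. The members and gene lists were chosen with earlier results of these data known.

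All members are named, and from each partner list up to 4 called genes with the smallest p, or up to 2 where none was called. Genes overlapping a member, Ripk3, Ripk1, Mlkl and Dmd are named whatever their test. For likeness, the 5 genes with a mean of at least 100 and the smallest Euclidean distance to Chd4 over the 5 libraries are named. The 16 alternatives changed the pseudocount, filter, scaling, variance moderation, length and GC terms or replicate block, or left out 1 library. Of these, 2 were chosen after seeing the data (length alone, and centring the correction on the mean), as was quantile normalization of the ratios.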

Additional observations from a re-analysis of the deposited data

How the results depend on the processing

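With pseudocounts of 1 and 10, no filter or a stricter filter, and with equal totals or quantile normalization, the same 4 CHD genes were called higher and none lower. Under quantile normalization Chd2 turned to 0.021, Ctnnb1 to 0.12, Gm6712 to -0.46 and Gm44686 to -0.50. With equal totals 2 partner genes were lower, and with a pseudocount of 10 the Chd5 to Chd4 ratio turned to -0.0044. Under quantile normalization, applied to the ratios only after seeing the data, it turned to -1.07 and the Chd3 to Chd4 difference was 0.56. Chd5 was not tested under the stricter filter.

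Removing length and GC content left 2 members higher, 1 lower and 7 partner genes lower. Chd2 was at -0.74, Chd4 at 0.38, Chd6 at -0.16 and Chd8 at 0.12, and H3f3b turned to 0.018, Rgmb to -0.22, Gm44552 to 0.10, Gm44553 to 0.39 and Gm25561 to 0.90. The log2 ratio of Chd2 to Chd1 turned to -0.18 and that of Chd5 to Chd4 to -0.23. Removing length alone left 2 members and 9 partner genes lower, with Chd1 at -0.87, Chd2 at -0.75, Chd6 at -0.16, Chd8 at 0.13, Chd9 at -0.029, Oaz1-ps at 0.087, Rgmb at -0.26 and Gm25561 at 0.78. Centring the correction on the mean, chosen like the previous one after seeing the data, gave 1466 genes higher and 3197 lower, 0 members higher and 3 lower, and 2 partner genes higher and 17 lower. Chd1 was then at -1.10, Chd2 at -1.28, Chd3 at 0.60, Chd4 at -0.16, Chd5 at -0.38, Chd6 at -0.70, Chd7 at 0.19, Chd8 at -0.42 and Chd9 at -0.42. Gatad2b was at -0.25, Ep400 at -0.32, Mbd3 at -0.42, Rgmb at -0.76 and Gm25561 at 0.37. That centring moved the median of all genes by -0.475.

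Moderation without the mean trend called 3005 genes (1150 lower), 1 member (Chd3) and 5 partner genes higher and 2 lower, with the fold changes of Chd4 (0.93), Chd7 (1.37) and Chd8 (0.65) no longer called. The cause was not tested. The genotypes share replicate numbers 1 and 2, and deviations of same-numbered libraries from their genotype mean correlated at -0.014 and -0.017. With 2 wild-type libraries, their deviations mirror each other. The 2 correlations are therefore not independent and cannot decide whether same-numbered libraries were paired. The replicate block, with 1 residual degree of freedom, called 2023 genes (1163 higher, 860 lower) and 5 partner genes higher and 2 lower. Chd8 was at 0.75 and not called (limma, adjusted p = 0.0907), Rgmb at -0.053 and Gm44686 at -0.13.

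With 1 library left out, 2562 to 5161 genes were called, 1450 to 3308 higher and 1112 to 1853 lower, the lowest counts without mdx library 3 and fewer samples in each fit. Partner genes numbered 6 to 15 higher and 2 to 5 lower. Chd6 ranged from 0.12 to 0.74, Chd8 from 0.50 to 0.81, Chd9 from 0.18 to 0.99, Gm44686 from -1.77 to 1.91, Gm6712 from -1.22 to 1.78, Gm44553 from -0.77 to 0.33 and Rgmb from -0.053 to 0.31. The log2 ratio of Chd9 to Chd8 ranged from -0.32 to 0.19 and that of Chd5 to Chd4 from -0.18 to 0.84. The low level of Chd5 limits what its values can show.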

Other observations

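The 5 genes whose pattern over the 5 libraries was most like that of Chd4, among 10607 genes with a mean of at least 100 normalized counts, were Hmg20b (distance 0.112), Pcnx (0.121), Dock11 (0.126), Zc3h13 (0.128) and Rock1 (0.136). The distance is the Euclidean distance between log2 values centred on each gene's mean. Hmg20b, a chromatin protein of a histone demethylase complex, was at 119 and 120 in the wild-type libraries against 232, 247 and 208 in mdx. Rock1, a kinase of the cytoskeleton, was at 1431 and 1506 in the wild-type libraries against 2842, 2761 and 2468 in mdx. Like Chd4, both had their lowest mdx value in the third library. Both were chosen by closeness to Chd4 over these same 5 libraries, so this likeness is part of the choice. Since the likeness covers the difference between genotypes, genes that changed by the same fold come near Chd4.

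The long deposited span of Chd1 takes in 7 other rows of the table, none of which overlaps the GENCODE gene. BC002059, a noncoding RNA, was at 318 and 585 in the wild-type libraries against 103, 74 and 111 in mdx and was called lower (limma, adjusted p = 0.0148), a call lost without wild-type library 2 (0.0936) or any 1 mdx library (0.0505 to 0.0533). Rgmb, a coreceptor of bone morphogenetic proteins, was at 1885 and 1942 in the wild-type libraries against 2269, 1498 and 2476 in mdx. Oaz1-ps, Gm6712, Zfp97, Zfp960 and Gm26873 stayed at or below 86 in every library, and neither they nor Rgmb were called. The other transcripts within Chd2 were also at low values, with Gm44552, Gm44553, Gm44686 and C130083A15Rik between 4 and 167 and not called. Gm45643 within Chd9 was at 18 and 4 against 0, 0 and 18. Mir7045 within Chd4 and Gm13645 within Chd5 were at 0 in both wild-type libraries and too low to test.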
